A study of Mus musculus with 12 samples.

Results

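The 10 genes described here carry the presentation of peptides by MHC class I: B2m, H2-K1, H2-D1, Tap1, Tap2, Tapbp, Psmb8, Psmb9, Psmb10 and Nlrc5. They were chosen by symbol from a table of 24346 mouse genes, and all 10 were found. Of these, 8 passed the filter on low values and were tested, and Psmb8 and Nlrc5 did not pass it.

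MHC class I molecules display short peptides from the cell's own proteins at its surface, where cytotoxic T cells inspect them. Proteins are cut by the proteasome, and in cells exposed to interferon its constitutive catalytic subunits can be replaced by inducible ones. The peptides are pumped into the endoplasmic reticulum, loaded onto a heavy chain paired with beta-2-microglobulin, and carried to the surface. Fibroblasts run this pathway at a basal level, and interferon-gamma is its best known inducer.

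RNA was sequenced from 2 fibroblast lines of mouse, each kept for 48 h in medium with 0.5% serum. NIH-3T3 came from embryos of NIH/Swiss mice, and MLg came from the lung of ddY mice. Each line received vehicle (control) or 1 µg/ml of recombinant SHHN, the amino-terminal part of Sonic hedgehog, a secreted ligand that switches on Gli-driven transcription. Line and treatment thus make 4 groups of 3 libraries each. No genotype other than that of the lines and no other agent is named for any group. Whether the replicates were separate cultures is not stated, so the p-values measure only the spread between these samples, which may be technical.

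Values are FPKM, fragment numbers divided by transcript length and by library size. Their sum per library ran from 470218 to 659862, and 13401 to 14793 genes were above 0. The highest sum and the lowest number of genes were both in NIH-3T3 control replicate 2. The part of this in the values of that library below was not tested. Sequencing depth is unknown. Gli1, a direct target of the pathway, went from 0.131 ± 0.0478 to 146.7 ± 6.69 FPKM (SD, n = 3) in NIH-3T3 and from 0.583 ± 0.280 to 120.1 ± 7.69 in MLg. The fibroblast genes Col1a1, Col1a2, Col3a1 and Vim were at 935 FPKM or more in every library, while Thy1 was at 115 to 204 FPKM in NIH-3T3 and at most 0.106 in MLg. The summed level of the 10 fibroblast markers ran from 17230 to 18410 FPKM in NIH-3T3 control and from 11780 to 13110 with SHHN. In MLg it ran from 10630 to 12890 in control and from 9801 to 11520 with SHHN. By the limma test and threshold given below, 1 of these 10 markers rose and 7 fell in NIH-3T3, beside 16.6% and 14.8% of all genes. In MLg 0 rose and 3 fell, beside 12.8% and 10.0% of all genes. The part of this shift in the values below was not tested. The proliferation marker Mki67 was at 2.54 ± 0.692 and 22.1 ± 5.31 FPKM in NIH-3T3 control and SHHN, and at 8.29 ± 2.09 and 44.7 ± 4.54 in MLg. Leukocytes carry this pathway at high levels, and their 10 markers together reached at most 1.92 FPKM in a library, with Adgre1, Cd3e and Tyrobp at 0 in all 12. By the limma test, the leukocyte marker Lyz2 rose in NIH-3T3 from 0.0291 to 0.425 FPKM on average (adjusted p = 0.0289), with overlap between the groups. It did not pass in MLg. Summed over each list, the 5 endothelial markers ran from 0.233 to 0.447 FPKM in MLg control, from 6.29 to 6.99 in MLg SHHN, from 5.75 to 7.94 in NIH-3T3 control and from 6.73 to 25.3 in NIH-3T3 SHHN. The higher sums came from Cdh5 and Tek, while Pecam1, Kdr and Vwf were at most 0.137, 0.0128 and 0.544 FPKM in any library. With SHHN the mean of Cdh5 went from 0.0775 to 9.06 FPKM in NIH-3T3 and from 0.0123 to 5.03 in MLg. That of Tek went from 6.87 to 8.76 and from 0.0547 to 0.943. By the same test, Cdh5 rose in both lines and Tek only in MLg. The 6 epithelial markers together stayed at or below 0.704 FPKM.

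The genes lie in 3 places of the mm10 genome (GENCODE M21 coordinates). On chromosome 17, 7 of them stand within 1352 kb, in the major histocompatibility complex: Tapbp at chr17:33915899-33929292, H2-K1 at chr17:33996017-34000347, Psmb9 at chr17:34181987-34187764, Tap1 at chr17:34187553-34197225, Psmb8 at chr17:34197721-34201454, Tap2 at chr17:34203527-34216321 and H2-D1 at chr17:35262730-35267499. B2m stands alone at chr2:122147686-122153083. On chromosome 8 are Nlrc5, at chr8:94434356-94527272, and Psmb10, at chr8:105935735-105938444. All 10 are annotated as protein coding. Tap1 and Psmb9 are transcribed away from each other, with 225 bases between their RefSeq starts, and in GENCODE a longer Psmb9 transcript overlaps 212 exonic bases of Tap1 on the opposite strand.

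The promoters of the heavy chains and of B2m are shown because their known control elements stand in 1 short stretch. The classical class I promoter holds a kB site bound by NF-kB proteins, an interferon-stimulated response element (ISRE) bound by IRF proteins, and an SXY module bound by RFX, CREB and NF-Y, on which NLRC5 acts. The RefSeq promoters (GRCm38.p6) were matched for 8 of the 10 genes. The letters searched, on both strands of 300 bases around the start, were GGG, any 2 bases, TT, any base and CC for kB, GAAA, any 2 bases and GAAA for the ISRE (GAA, any 2 bases and GAAA for a shorter form), and TGACG and ATTGG for 2 parts of the SXY module. These spellings were chosen with the sequences in view. The stretch of B2m is at chr2:122147548-122147638 on the plus strand, and that of H2-K1 at chr17:34000359-34000458 on the minus strand. Both run 5′ to 3′ from the first of these elements to the end of ATTGG, with the matches in capitals.
B2m: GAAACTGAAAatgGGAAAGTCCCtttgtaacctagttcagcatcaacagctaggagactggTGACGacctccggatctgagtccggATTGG
H2-K1: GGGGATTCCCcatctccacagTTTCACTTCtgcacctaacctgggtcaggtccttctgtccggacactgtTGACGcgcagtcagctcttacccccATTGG

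The capitals are, in order, ISRE, kB (opposite strand), TGACG and ATTGG in B2m, and kB, short ISRE (opposite strand), TGACG and ATTGG in H2-K1. H2-D1 has the order of H2-K1, with the same kB letters, GGGGATTCCC. The last part of the stretch, from TGACG to ATTGG, is set side by side for the 3 genes, with that of H2-D1 at chr17:35262993-35263022 on the plus strand.
B2m: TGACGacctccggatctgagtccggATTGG
H2-K1: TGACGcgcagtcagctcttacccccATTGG
H2-D1: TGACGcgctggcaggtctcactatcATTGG

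In each of the 3 genes, 20 bases separate TGACG from ATTGG. From the start of kB to the start of TGACG are 70 bases in H2-K1 and H2-D1, and 48 in B2m. Of 27025 promoters of the same length, 4.71% held kB, 3.49% the ISRE, 7.56% its shorter form, 21% TGACG and 37.9% ATTGG. The pair of TGACG followed by ATTGG on the same strand within 15 to 30 bases was in 0.614%. This pair together with kB and either ISRE spelling was in 5 promoters of 27025, of which B2m, H2-K1 and H2-D1 are 3. Since the spellings were chosen with the sequences in view, the place of these 3 among the 5 was set in advance and is no test. The windows of Tap1 and Psmb9 held only TGACG and ATTGG (or its reverse, CCAAT), that of Tapbp only ATTGG, and those of Psmb8 and Psmb10 none of these spellings. GACCACCCA, a binding sequence of the Gli factors, was in none of the 8 windows and in 0.244% of all. A match describes letters and does not show that a factor binds there. A window without these letters does not show that an element is missing either. Only 1 RefSeq start per gene was searched, and those of Tapbp (chr17:33919478), Psmb8 (chr17:34198195) and H2-D1 (chr17:35263094), for example, lie inside the GENCODE genes. The H2-D1 stretch shown lies inside its GENCODE gene too.

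**Figure D1:**
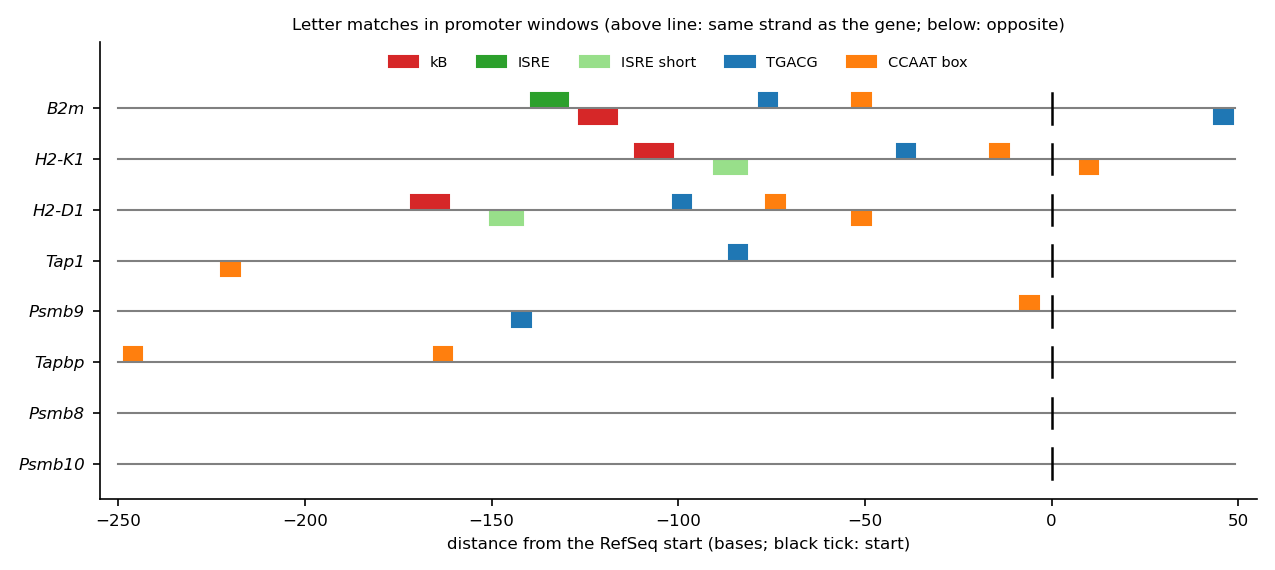
Positions of the letter matches in the RefSeq promoter windows of 8 genes, in bases from the annotated start (black tick, at 0). Boxes above a line are on the gene's own strand and boxes below it on the opposite strand; B2m, H2-K1 and H2-D1 each show a kB box, an ISRE box, and a TGACG box with the CCAAT box (the match to ATTGG) 20 bases after it.

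The first question was how the pathway responded to SHHN in each line. Differences were tested with limma on log2(FPKM + 0.5), a scale that understates changes of low genes, with p-values adjusted by Benjamini-Hochberg over all 12379 genes tested and a threshold of 0.05. In NIH-3T3, 1 of the 8 tested genes rose (Tap1), 3 fell (H2-D1, Tap2 and Tapbp) and 4 did not pass. Among all genes tested in NIH-3T3, 31.4% were called, 16.6% higher and 14.8% lower. In MLg, 0 rose, 5 fell (H2-D1, Tap2, Tapbp, Psmb9 and Psmb10) and 3 did not pass, where 22.8% of all genes were called, 12.8% higher and 10.0% lower. The median log2 fold change of the 8 was −0.30 in NIH-3T3, beside −0.01 over all genes, and −0.59 in MLg, beside −0.003 over all genes. The control and SHHN libraries did not overlap for 2 genes that were higher (Tap1 and Psmb9) and 3 that were lower in NIH-3T3, where 21.6% and 18.8% of all genes stood apart in these directions. In MLg they did not overlap for 0 higher and 7 lower genes, all tested members but Psmb9, beside 21.4% and 20.0% of all genes. H2-D1, Tap2 and Tapbp fell in both lines, as did 519 of all 12379 genes. The lowest value of any of the 8 in a library was 2.14 FPKM, so none passed the filter of 0.5 FPKM through 1 group alone. In these bulk samples, fewer cells with a transcript and less of it per cell cannot be told apart.

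**Figure D2:**
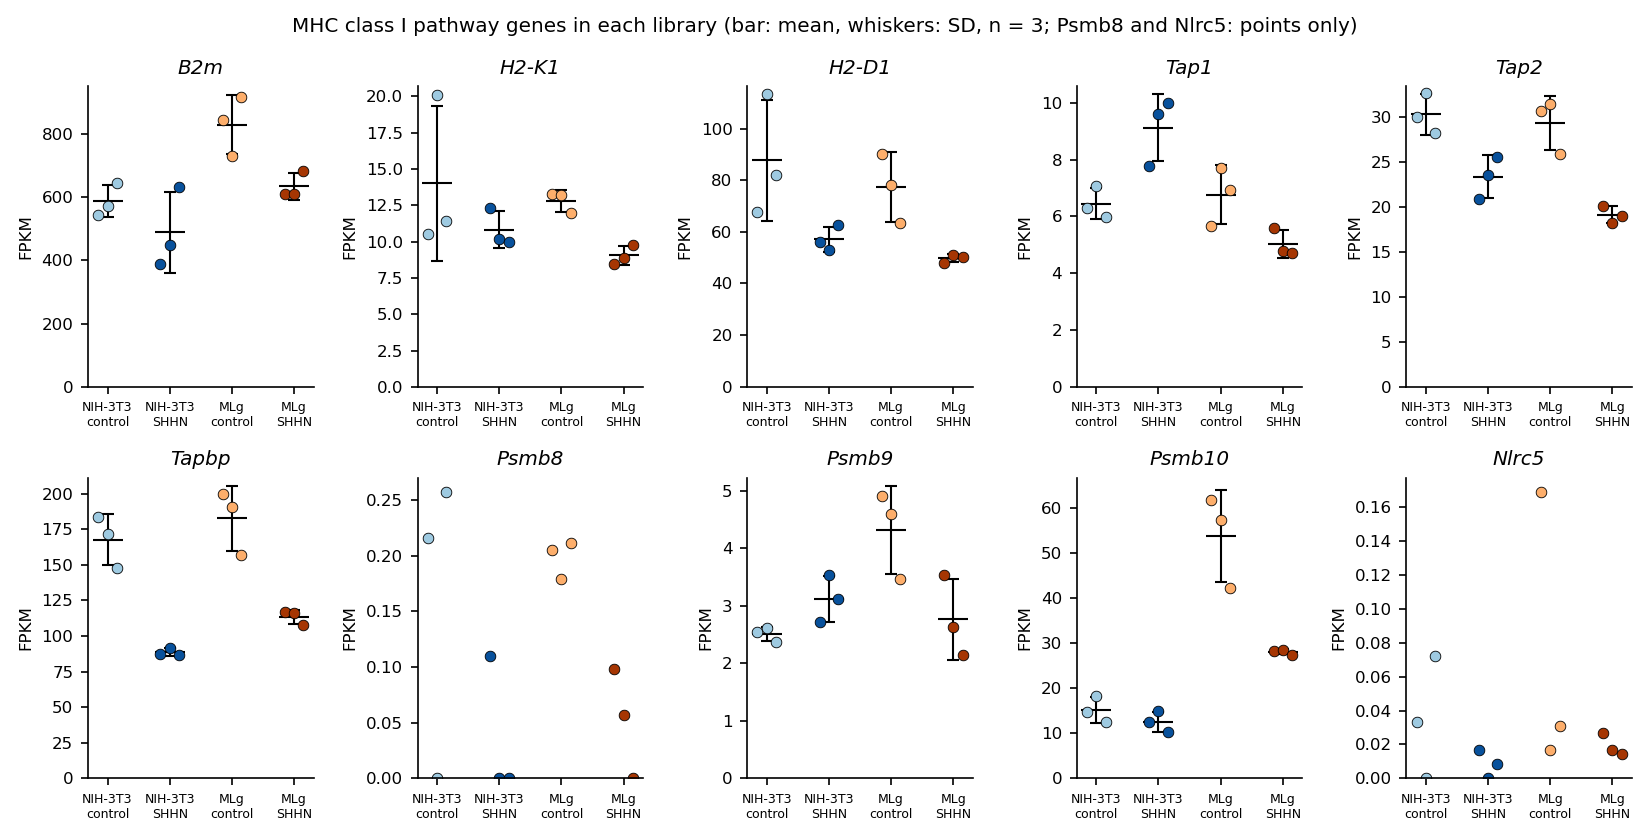
FPKM of the 10 genes in each of the 12 libraries (points, y axis from 0), with the group mean and SD (n = 3) except for Psmb8 and Nlrc5, where values of 0 occur. The SHHN libraries of Tapbp lie between 86.4 and 117 FPKM and its control libraries between 148 and 199.95, and Tap1 with SHHN is above control in NIH-3T3 and below it in MLg.

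Beta-2-microglobulin, the invariant light chain of every class I molecule, was the most abundant member. B2m stood at 545, 574 and 646 FPKM in NIH-3T3 control and at 387, 448 and 631 with SHHN. The groups overlapped, since the highest SHHN library stood among the control libraries. The log2 fold change was −0.29 (SE 0.17, adjusted p = 0.207), and without NIH-3T3 SHHN replicate 3 it was −0.49 and passed (0.0251). In MLg it stood at 844, 731 and 917 FPKM in control and at 611, 609.9 and 684 with SHHN, and every SHHN library was below every control library. That difference, −0.38 (SE 0.17), did not pass (adjusted p = 0.128).

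H2-D1, a classical heavy chain, fell in both lines. In NIH-3T3 control it stood at 67.8, 113 and 81.9 FPKM and with SHHN at 56.2, 53.0 and 62.5. In MLg control it stood at 90.3, 78.1 and 63.5 and with SHHN at 48.1, 51.0 and 50.2. The groups did not overlap in either line, and the SHHN libraries lay close together while replicate 2 of NIH-3T3 control stood high. The log2 fold change was −0.58 in NIH-3T3 (SE 0.17, adjusted p = 0.0184) and −0.62 in MLg (SE 0.17, adjusted p = 0.0175). The NIH-3T3 call was lost on leaving out control replicate 2 (−0.38, adjusted p = 0.0588), SHHN replicate 1 (−0.57, 0.0513) or SHHN replicate 2 (−0.53, 0.0702), and with only the 6 NIH-3T3 libraries in the fit (−0.58, 0.0798). The MLg call was lost on leaving out MLg control replicate 1 (−0.50, 0.0825) or 2 (−0.60, 0.0566) or SHHN replicate 1 (−0.59, 0.0601) or 3 (−0.62, 0.0529).

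H2-K1, the other classical heavy chain of this list, was lower than H2-D1 in every library. It stood at 10.5, 20.1 and 11.4 FPKM in NIH-3T3 control and at 12.3, 10.2 and 9.98 with SHHN, with overlap between the groups (log2 fold change −0.31, SE 0.19, adjusted p = 0.258). Replicate 2 was again the high control library, and the difference was −0.022 without it and −0.48 without control replicate 1, the extremes over single libraries. In MLg it stood at 13.3, 13.2 and 11.9 FPKM in control and at 8.49, 8.90 and 9.79 with SHHN, with no overlap. That difference of −0.48 (SE 0.19) did not pass (adjusted p = 0.0982), although it did without NIH-3T3 control replicate 2 in the shared fit (0.00683) and with the 6 MLg libraries alone (0.0127).

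Heavy chain genes are near copies of each other and differ between mouse strains, and the reads were aligned to 1 reference genome. The part of this in the levels of H2-K1 and H2-D1, and so in their order, was not tested. Of the 50-base windows of its transcripts, H2-K1 shared 9.63% with other genes, and H2-D1 12.8%, mostly H2-Q genes and each other. The sum of H2-K1 and H2-D1 moved by −0.54 in NIH-3T3 (SE 0.17, adjusted p = 0.0259) and −0.60 in MLg (SE 0.17, adjusted p = 0.0199). With the listed H2-L and H2-Q genes added to the sum, the differences were −0.36 (adjusted p = 0.123) and −0.38 (adjusted p = 0.124), and neither passed. In that wider sum H2-Q4 stood at 15.3 ± 1.86 and 19.8 ± 0.342 FPKM in MLg control and SHHN (log2 fold change 0.37, SE 0.21, adjusted p = 0.262). H2-L stood at 5.24 ± 1.63 and 10.4 ± 7.83 FPKM in NIH-3T3 control and SHHN (0.69, SE 0.47, adjusted p = 0.296). These 2 genes were named after their values were seen.

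Tapbp encodes tapasin, which bridges the class I heavy chain to the peptide transporter, and it fell in both lines. In NIH-3T3 it stood at 183, 172 and 148 FPKM in control and at 87.6, 91.7 and 86.4 with SHHN. In MLg it stood at 199.95, 191 and 157 in control and at 117, 116 and 108 with SHHN. Every SHHN library lay far below every control library of its line. The log2 fold change was −0.91 in NIH-3T3 (SE 0.12, adjusted p = 4.26e-05) and −0.68 in MLg (SE 0.12, adjusted p = 0.000724), and both calls held under every alternative tried. Of its transcript windows 23.2% were shared with other genes, and 1053 of its exonic bases overlap Gm19412 on the opposite strand or Zbtb22 on the same strand.

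Tap1 and Tap2 form the transporter that moves peptides into the endoplasmic reticulum, and they parted in NIH-3T3. Tap2 stood there at 30.02, 32.8 and 28.2 FPKM in control and at 20.9, 23.6 and 25.6 with SHHN. Tap1 stood at 6.30, 7.06 and 5.99 in control and at 7.79, 9.60 and 9.997 with SHHN. Neither gene's groups overlapped, with Tap2 low and Tap1 high in the SHHN libraries. Tap2 fell by 0.37 on the log2 scale (SE 0.11, adjusted p = 0.0254) and Tap1 rose by 0.46 (SE 0.14, adjusted p = 0.0249). The Tap1 call was lost with quantile normalization (0.0552), with 6 libraries in the fit (0.0681), and on leaving out replicate 1 (0.0592) or 3 (0.0809) of NIH-3T3 control or 2 (0.0861) or 3 (0.0851) of SHHN. The Tap2 call was lost with 6 libraries in the fit (0.0656), and on leaving out replicate 2 of NIH-3T3 control (0.0657) or replicate 1 (0.101) or 2 (0.0612) of SHHN.

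In MLg both transporter genes were lower with SHHN in every library. Tap2 stood at 30.7, 31.5 and 25.9 FPKM in control and at 20.2, 18.3 and 19.0 with SHHN, and it fell by 0.60 (SE 0.11, adjusted p = 0.00157). Tap1 stood at 5.66, 7.71 and 6.92 in control and at 5.602, 4.78 and 4.73 with SHHN, with control replicate 1 just above the highest SHHN library. Its difference of −0.39 (SE 0.14) did not pass (adjusted p = 0.0723), but it passed with quantile normalization (0.0321), with median-ratio scaling (0.0468) and without MLg control replicate 1 (0.0352). The difference between the responses of the lines was tested directly, and of the 8 members 2 had a higher effect in NIH-3T3 (Tap1 and Psmb9) and 0 a lower one, beside 7.48% and 5.95% of all genes. For Tap1 the SHHN effect in NIH-3T3 exceeded that in MLg by 0.85 (SE 0.20, adjusted p = 0.0143), and this held under every alternative tried. For Tap2 the difference was 0.23 (95% interval −0.12 to 0.58, adjusted p = 0.384). Overlapping genes on the opposite strand cover 212 exonic bases of Tap1 and 698 of Tap2, and whether reads were counted by strand is not given in the sources used here.

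**Figure D3:**
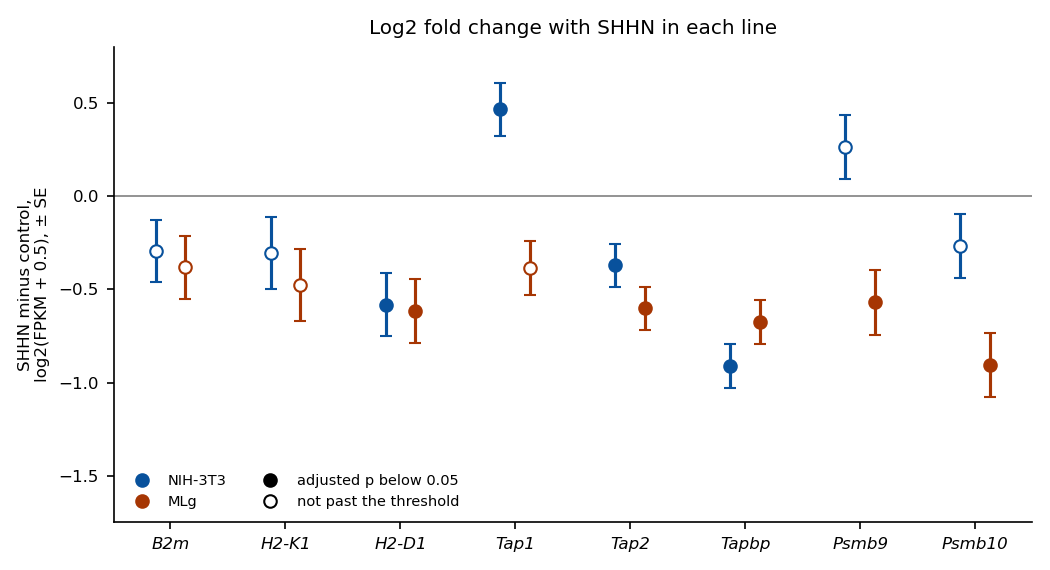
Log2 fold change with SHHN (points) and its SE (whiskers) for the 8 tested genes in NIH-3T3 (blue) and MLg (brown), on log2(FPKM + 0.5). Filled points passed an adjusted p of 0.05; all 8 points of MLg lie below 0, while Tap1 (0.46) and Psmb9 (0.26) lie above 0 in NIH-3T3.

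The inducible proteasome subunits stood at 3 different levels. Psmb10, which takes the place of Psmb7, was the highest. In MLg it stood at 61.7, 57.3 and 42.1 FPKM in control and at 28.3, 28.4 and 27.4 with SHHN, and every SHHN library was below every control library. It fell by 0.91 (SE 0.17, adjusted p = 0.00146), a call that every alternative kept. In NIH-3T3 it stood at 14.7, 18.3 and 12.6 FPKM in control and at 12.5, 14.8 and 10.3 with SHHN, with overlap (−0.27, SE 0.17, adjusted p = 0.269). The SHHN effects of the lines differed by 0.64 (SE 0.24, adjusted p = 0.102). This difference passed with the replicate number as a block (adjusted p = 0.0340) and without NIH-3T3 control replicate 2 (0.0337) or MLg control replicate 3 (0.0344).

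Psmb9, which takes the place of Psmb6, was below Psmb10 in every library. In MLg it stood at 4.90, 4.60 and 3.46 FPKM in control and at 3.53, 2.64 and 2.14 with SHHN, with overlap of 1 library from each group. It fell by 0.57 (SE 0.17, adjusted p = 0.0295). In NIH-3T3 it stood at 2.54, 2.61 and 2.37 in control and at 2.73, 3.53 and 3.12 with SHHN, with every SHHN library above control, but the difference of 0.26 (SE 0.17) did not pass (adjusted p = 0.279). The effects differed between the lines by 0.83 (SE 0.24, adjusted p = 0.0389). The MLg call was lost with no filter (0.0537), with 6 libraries in the fit (0.0682), and on leaving out replicate 1 (0.112) or 2 (0.101) of MLg control or 2 (0.0852) or 3 (0.150) of MLg SHHN. The difference was lost with no filter (0.0672), with quantile normalization (0.0651), and on leaving out any 1 of 8 libraries, namely replicates 1 and 3 of NIH-3T3 control, 2 and 3 of NIH-3T3 SHHN, 1 and 2 of MLg control and 2 and 3 of MLg SHHN (0.0594 to 0.107).

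Psmb8, which takes the place of Psmb5, was close to 0 in every library and was not tested. It was listed at 0.216, 0 and 0.258 FPKM in NIH-3T3 control and at 0.110, 0 and 0 with SHHN. In MLg it was listed at 0.206, 0.179 and 0.212 in control and at 0.0982, 0.0570 and 0 with SHHN. The groups overlapped in NIH-3T3 and did not in MLg, at levels where no fold change is given. Its gene lies between Tap1 and Tap2, and 498 of its exonic bases overlap the opposite-strand gene Gm20496.

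Set against the RNA of the constitutive subunit that each replaces, the inducible subunits stood at unlike ratios. These are ratios of RNA levels and not shares of the proteasome. Since FPKM is per length, the level of Psmb10 was expressed as a percent of that of Psmb7. It was 34.4% ± 7.7 (SD, n = 3) in MLg control and 16.2% ± 1.1 in MLg SHHN, and 10.5% ± 1.6 and 9.14% ± 2.2 in NIH-3T3 control and SHHN. Psmb9 was at 3.16% ± 0.34 of Psmb6 in MLg control and 1.96% ± 0.54 in MLg SHHN, and at 2.41% ± 0.33 and 3.16% ± 0.49 in NIH-3T3. Psmb8 was at most 0.485% of Psmb5 in any library. The constitutive subunits themselves did not pass in either line: Psmb5 moved by 0.13 in NIH-3T3 and 0.02 in MLg, Psmb6 by −0.08 and 0.06, and Psmb7 by −0.05 and 0.15 on the log2 scale. Of these, Psmb6 and Psmb7 in NIH-3T3 and Psmb5 and Psmb6 in MLg changed sign under some alternatives, without a call.

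**Figure D4:**
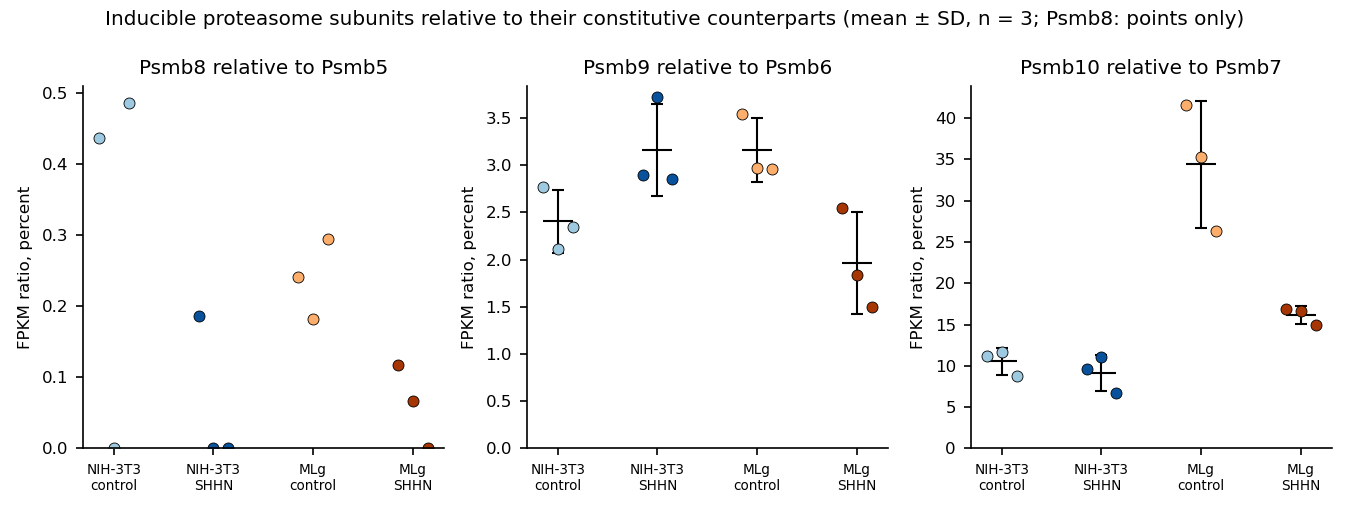
FPKM of each inducible proteasome subunit as a percent of its constitutive counterpart, per library (points), with mean and SD (n = 3; Psmb8 as points only). Psmb10 in MLg control (26.3% to 41.6% of Psmb7) stands above the other 3 groups, and Psmb8 stays at or below 0.485% of Psmb5.

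Nlrc5, the transactivator that acts on class I promoters, was at the lower edge of the table. It was listed at 0.0334, 0 and 0.0724 FPKM in NIH-3T3 control and at 0.0167, 0 and 0.00819 with SHHN. In MLg it was listed at 0.169, 0.0168 and 0.0310 in control and at 0.0266, 0.0165 and 0.0146 with SHHN. The groups overlapped in both lines, no value reached the filter of 0.5 FPKM, and no fold change is given. Rfx5, a DNA-bound partner of NLRC5, stood at 4.83 ± 0.589 and 4.88 ± 0.605 FPKM in NIH-3T3 control and SHHN and at 7.85 ± 0.757 and 7.24 ± 0.757 in MLg, and it did not pass in either line. Rfxap, another subunit of that complex, was singled out after its values were seen. It was at 6.03, 10.4 and 7.55 FPKM in NIH-3T3 control and at 12.1, 13.01 and 13.4 with SHHN, with no overlap (0.68, SE 0.18, adjusted p = 0.0119), and at −0.06 in MLg (adjusted p = 0.868). Its NIH-3T3 call was lost on leaving out control replicate 1 or with the 6 libraries of that line alone.

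The second question was how the lines differed without ligand. B2m, Psmb9 and Psmb10 were lower in NIH-3T3 control than in MLg control, and the other 5 tested genes did not pass. Among all genes 50.1% were called, 24.4% higher and 25.7% lower in NIH-3T3. The libraries of the 2 control groups did not overlap for 0 higher members and 3 lower ones (the same 3), beside 25.2% and 27.0% of all genes. Psmb10 differed by −1.79 (SE 0.17, adjusted p = 1.22e-06), with means of 15.2 ± 2.91 FPKM in NIH-3T3 and 53.7 ± 10.3 in MLg. Psmb9 differed by −0.67 (SE 0.17, adjusted p = 0.00569), and B2m by −0.49 (SE 0.17, adjusted p = 0.0252). The B2m call was lost on leaving out NIH-3T3 control replicate 1 (0.0683), MLg control replicate 1 (0.0647) or MLg control replicate 3 (0.0873). The 95% intervals of the others were −0.35 to 0.48 for H2-K1, −0.20 to 0.53 for H2-D1, −0.37 to 0.25 for Tap1, −0.20 to 0.30 for Tap2 and −0.37 to 0.13 for Tapbp. For the heavy chains, line and strain cannot be told apart, since the lines come from unlike mouse strains and the reads were aligned to the genome of another.

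By mean level in the control libraries of either line, the order began with B2m, Tapbp and H2-D1, which in NIH-3T3 stood at 588 ± 52.2, 168 ± 17.9 and 87.6 ± 23.3 FPKM and in MLg at 830.4 ± 93.9, 183 ± 22.8 and 77.3 ± 13.4. The lowest 3 tested genes by mean were H2-K1, Tap1 and Psmb9 in both lines. In NIH-3T3 Psmb10 (12.6 to 18.3 FPKM) and H2-K1 (10.5 to 20.1 FPKM) overlapped and cannot be ordered. In MLg Tap1 and Psmb9 did not overlap in control. Tap2 lay between Psmb10 and H2-K1 in MLg and above both in NIH-3T3.

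Across the 12 libraries, which share lines and treatments, the genes did not all move as 1. Pearson's r of log2(FPKM + 0.5), given as a description, was 0.88 between H2-K1 and H2-D1, 0.89 between H2-D1 and Tap2, and 0.74 between Tap2 and Tapbp. B2m and Psmb10 correlated at 0.72. Tap1 correlated with B2m at −0.35, with Tapbp at −0.31 and with Psmb10 at −0.41. Tap1 and Psmb9, whose starts stand back to back, correlated at 0.29. The mean of the standardized values of the 8 tested genes was highest in MLg control replicates 1 and 2 (1.03 and 0.99) and lowest in MLg SHHN replicates 3 and 2 (−0.72 and −0.70). In NIH-3T3 the SHHN libraries (−0.65, −0.35 and −0.19) lay below the control libraries (−0.07, 0.69 and −0.06), and control replicate 2 stood apart from the other control libraries.

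The other steps of the pathway were read from gene lists written from general knowledge of it. These lists were chosen with earlier results of these data known, so their counts beside those of all genes are a description. Of 17 genes of peptide trimming and loading, all tested, 0 rose and 5 fell in NIH-3T3, and 1 rose and 3 fell in MLg (medians −0.01 and −0.10). Among all genes 16.6% rose and 14.8% fell in NIH-3T3, and 12.8% rose and 10.0% fell in MLg. The count that fell in NIH-3T3 was 2 or 3 with no filter, with the 6 libraries alone, or without control replicate 1 or 3 or SHHN replicate 1 or 2 of NIH-3T3, MLg control replicate 1 or any 1 MLg SHHN library. The count that fell in MLg was 1 without any 1 MLg control library and 0 without MLg SHHN replicate 2 or 3. Lap3, a cytosolic aminopeptidase, fell in NIH-3T3 from 42.7 ± 2.30 to 29.4 ± 2.09 FPKM (−0.53, SE 0.11, adjusted p = 0.00219), and was at 26.9 ± 3.13 and 26.8 ± 1.72 FPKM in MLg. Erap1, which trims peptides in the endoplasmic reticulum, fell in NIH-3T3 (−0.63, SE 0.15, adjusted p = 0.00644) and was at −0.41 in MLg (adjusted p = 0.0718). Blmh, a cytosolic peptidase, rose in MLg from 25.5 ± 0.884 to 36.97 ± 1.49 FPKM (0.53, SE 0.12, adjusted p = 0.00466). Tapbpl, a relative of tapasin, fell by 0.53 in NIH-3T3 (adjusted p = 0.0214) and by 0.55 in MLg (adjusted p = 0.0222). The Tapbpl call in NIH-3T3 was lost on leaving out control replicate 1 (0.0519) or 2 (0.0618) or SHHN replicate 1 (0.0917) of that line, or with its 6 libraries alone (0.0923), and that in MLg on leaving out MLg control replicate 1 (0.0872) or 2 (0.0675) or SHHN replicate 2 (0.0597) or 3 (0.103).

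Of 19 constitutive proteasome subunits and activators, 0 rose and 2 fell in NIH-3T3 and 1 rose and 0 fell in MLg, with medians of −0.03 and 0.02. All 4 shares lie below those of all genes (16.6% and 14.8% in NIH-3T3, 12.8% and 10.0% in MLg). The 2 that fell were Psmb1, a structural subunit (−0.36, adjusted p = 0.0333), and Psme2, a subunit of the interferon-inducible activator PA28 (−0.38, adjusted p = 0.0288). The Psmb1 call was lost on leaving out NIH-3T3 control replicate 2 (0.0912) or 3 (0.102) or SHHN replicate 1 (0.0705) or 2 (0.140), or with the 6 libraries alone (0.103). The Psme2 call was lost on leaving out control replicate 2 (0.0810) or 3 (0.0607) or SHHN replicate 2 (0.120), or with the 6 libraries alone (0.0534). Psme3, the nuclear activator subunit, rose in MLg (0.40, adjusted p = 0.0382), a call lost on leaving out any 1 of the 6 MLg libraries (0.0532 to 0.158) or without NIH-3T3 SHHN replicate 2 (0.0521).

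Of 23 other class I and class I-like genes, mostly non-classical but with the classical heavy chain H2-L, 12 were tested. In NIH-3T3, 2 rose and 2 fell, beside 16.6% and 14.8% of all genes. In MLg, 1 rose and 4 fell, beside 12.8% and 10.0%. The medians were −0.38 and −0.12. Among the NIH-3T3 calls, Hfe (from 0.236 to 0.799 FPKM on average) and H2-T24 (from 0.865 to 0.437) stood near the filter of 0.5 FPKM. H2-T24 was at most 0.288 FPKM in MLg, so it passed the filter mainly through NIH-3T3 control, where it was high. These 2 genes were named after their values were seen. In NIH-3T3 the count that rose was 5 without SHHN replicate 1 and 1 without SHHN replicate 3. The count that fell there was 1 without control replicate 2 or 3, with a pseudocount of 0.1 or with the 6 libraries alone, and 5 with quantile normalization. Mr1, which presents vitamin B metabolites to MAIT cells, rose in both lines. It stood at 18.4, 14.2 and 16.3 FPKM in NIH-3T3 control and at 76.6, 77.7 and 74.5 with SHHN, and at 11.2, 10.5 and 12.1 in MLg control and 78.6, 81.4 and 82.4 with SHHN. All SHHN libraries were far above all control libraries, with log2 fold changes of 2.199 (SE 0.11, adjusted p = 7.81e-09) in NIH-3T3 and 2.79 (SE 0.11, adjusted p = 1.59e-09) in MLg. The effect was larger in MLg (difference −0.59, SE 0.15, adjusted p = 0.0203), a call lost on leaving out MLg control replicate 2 (0.0576) or MLg SHHN replicate 2 (0.0509) or 3 (0.0583). H2-M3, which presents formylated peptides, fell by 0.68 in both lines (adjusted p = 0.00960 in NIH-3T3 and 0.0116 in MLg), and its NIH-3T3 call was lost with the 6 libraries alone (0.0723). Fcgrt, the neonatal Fc receptor and also a partner of B2m, fell in MLg from 79.0 ± 8.05 to 50.3 ± 5.87 FPKM (−0.65, SE 0.14, adjusted p = 0.00398) and was at −0.39 in NIH-3T3 (adjusted p = 0.0505). H2-T23, the mouse Qa-1 chain, fell in MLg from 18.04 ± 2.87 to 8.15 ± 0.439 FPKM (−1.09, SE 0.24, adjusted p = 0.00412) and stood at 1.46 ± 0.193 and 0.899 ± 0.506 in NIH-3T3 control and SHHN (−0.56, adjusted p = 0.0912). The NIH-3T3 value passed without SHHN replicate 1 (−0.73, 0.0496) and with quantile normalization (−0.66, 0.0497), and was −0.21 (0.362) without SHHN replicate 3.

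Of 21 transcription factors and cofactors of class I genes, 19 were tested, and in each line 1 rose and 5 fell (medians −0.13 and −0.12), beside 16.6% and 14.8% of all genes in NIH-3T3 and 12.8% and 10.0% in MLg. The gene that rose in NIH-3T3 was Rfxap, given above, and that in MLg was Nfyc. Irf1, the interferon-induced activator that binds the ISRE, fell in NIH-3T3 from 20.5 ± 1.81 to 13.3 ± 0.694 FPKM (−0.60, SE 0.11, adjusted p = 0.000771) and in MLg from 40.5 ± 4.16 to 26.2 ± 0.648 (−0.61, SE 0.11, adjusted p = 0.000819). Irf2, which binds the same element, fell in NIH-3T3 from 14.7 ± 1.24 to 6.59 ± 0.238 FPKM (−1.10, SE 0.12, adjusted p = 1.13e-05) and from 10.4 ± 1.29 to 6.26 ± 0.470 in MLg (−0.68, SE 0.12, adjusted p = 0.000937). Irf7 fell by 0.75 in NIH-3T3 (adjusted p = 0.00224) and by 1.01 in MLg (adjusted p = 0.000276), at levels of 3.23 FPKM or less on average. Nfyc, a subunit of the factor that binds ATTGG, rose in MLg (0.52, adjusted p = 0.00412) and was at 0.22 in NIH-3T3.

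Of 18 genes of interferon signalling, 16 were tested, of which 1 rose and 8 fell in NIH-3T3 and 2 rose and 6 fell in MLg (medians −0.35 and −0.37), beside 16.6% and 14.8% of all genes in NIH-3T3 and 12.8% and 10.0% in MLg. The count that fell in NIH-3T3 was 5 without NIH-3T3 SHHN replicate 2 and 5 with the 6 libraries alone, and the count that rose was 2 without SHHN replicate 3. Ifnar2, a chain of the type I interferon receptor, fell in NIH-3T3 from 29.4 ± 1.52 to 12.7 ± 1.67 FPKM (−1.18, SE 0.14, adjusted p = 1.6e-05) and from 24.9 ± 2.996 to 14.6 ± 2.11 in MLg (−0.76, SE 0.14, adjusted p = 0.00100). Stat2 fell by 0.82 in NIH-3T3 (SE 0.13, adjusted p = 0.000251) and by 0.98 in MLg (SE 0.13, adjusted p = 6.55e-05). Socs1 and Socs3, 2 of the inhibitors on this list, went opposite ways. Socs1 rose from 18.3 ± 4.08 to 60.1 ± 12.4 FPKM in NIH-3T3 (1.68, SE 0.22, adjusted p = 5.09e-05) and from 8.64 ± 1.91 to 23.1 ± 5.69 in MLg (1.37, SE 0.22, adjusted p = 0.000401), while Socs3 fell in NIH-3T3 from 21.5 ± 2.35 to 3.84 ± 1.77 FPKM (−2.41, SE 0.21, adjusted p = 1.21e-06) and from 21.8 ± 1.63 to 8.93 ± 0.692 in MLg (−1.24, SE 0.21, adjusted p = 0.000633).

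**Figure D5:**
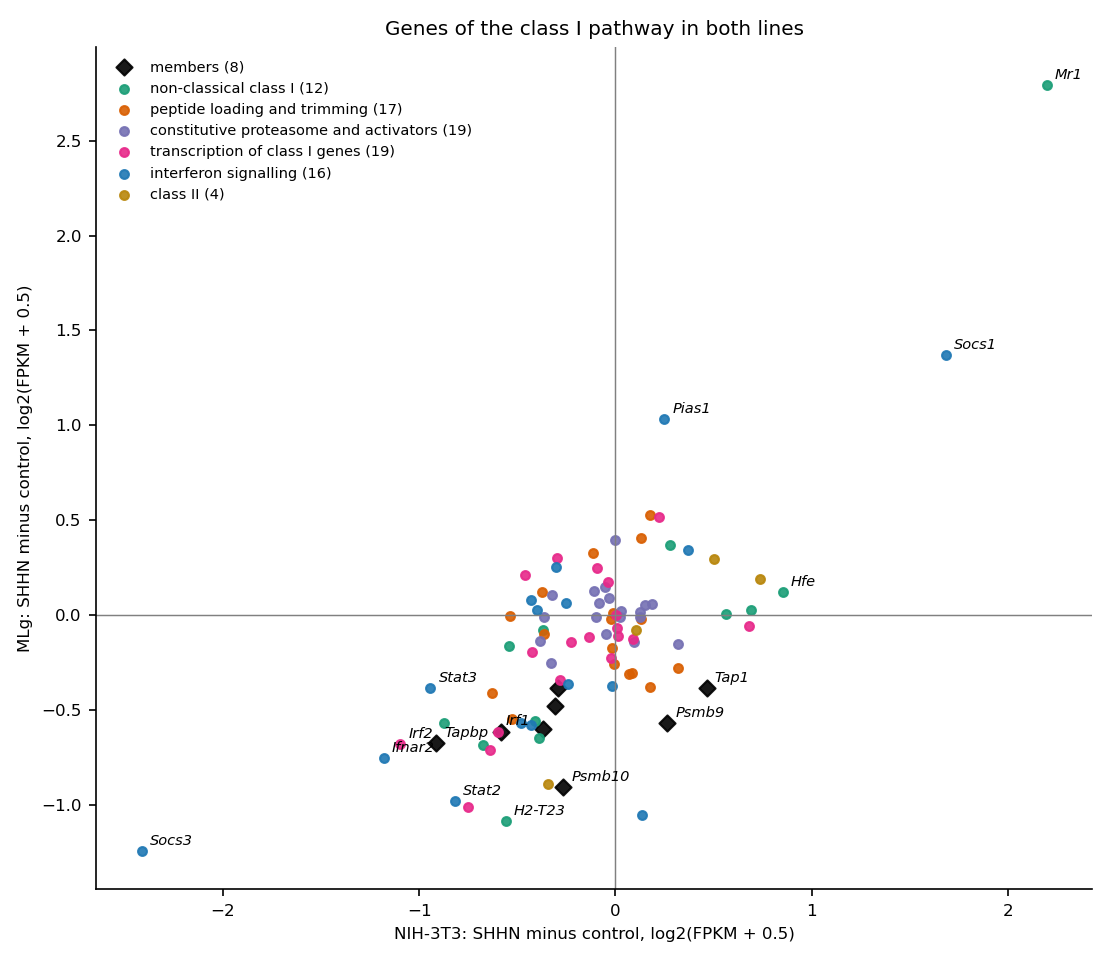
Log2 fold change with SHHN in NIH-3T3 (x axis) and in MLg (y axis), on log2(FPKM + 0.5), for the 8 tested members (black diamonds) and the tested genes of 6 pathway lists (coloured points; number tested in brackets). Mr1 (2.199 and 2.79) and Socs1 (1.68 and 1.37) lie at the upper right and Socs3 (−2.41 and −1.24) at the lower left, while Tap1 and Psmb9 lie right of 0 and below 0.

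Of 11 class II genes only 4 passed the filter. Of these, 1 rose and 0 fell in NIH-3T3, beside 16.6% and 14.8% of all genes. In MLg 0 rose and 1 fell, beside 12.8% and 10.0% of all genes. The count that rose in NIH-3T3 was 2 without SHHN replicate 1. With a filter of 1 FPKM the count that fell in MLg was 0, since Cd74, the gene counted, was not tested there. H2-DMb1, part of the class II peptide editor, rose in NIH-3T3 from 2.93 ± 0.321 to 5.32 ± 1.55 FPKM (0.74, adjusted p = 0.00870), a call lost with the 6 NIH-3T3 libraries alone (0.0521). Cd74, the invariant chain, fell in MLg from 1.35 ± 0.598 to 0.467 ± 0.164 FPKM (−0.89, adjusted p = 0.0163). In NIH-3T3 its means were 0.21 FPKM in control and 0.0536 with SHHN. It thus passed the filter of 0.5 FPKM mainly through MLg control, the group where it was high, and its call is a description. The Cd74 call was lost on leaving out MLg control replicate 2 (0.0818) or 3 (0.0665) or SHHN replicate 2 (0.0752).

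The genes most like the mean standardized pattern of the 8 members, by Pearson's r over the 12 libraries among 10785 candidates, were Ly6e (0.96), Rpusd4 (0.95), Grn (0.95), Qsox1 (0.94), Mocos (0.93) and Gnptg (0.93). They were picked for this likeness, so their values are a description. Ly6e, a lipid-anchored surface protein induced by interferon, averaged 84.7 and 67.6 FPKM in NIH-3T3 control and SHHN and 126 and 52.2 in MLg. Grn, which encodes progranulin, averaged 163 and 141 FPKM in NIH-3T3 and 205 and 138 in MLg. Qsox1, an enzyme that forms disulfide bonds, averaged 70.2 and 57.9 FPKM in NIH-3T3 and 86.7 and 58.3 in MLg.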

How the data were processed

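RNA sequencing values of 12 libraries, 3 in each of 4 groups, were used as the authors deposited them, in FPKM. The submitters' processing notes name bcl2fastq, TopHat2 2.0.12, Cufflinks 2.2.1 and the build mm10; the annotation, the strandedness of counting and any scaling between libraries are not given in the sources used here. FPKM already divides by transcript length and library size, so depth is unknown, limits the low genes most, and allows no counting interval. Groups were taken from the line and treatment labels.

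The filter kept the 12379 of 24346 genes that reached 0.5 FPKM in 3 or more of the 12 libraries. On log2(FPKM + 0.5), limma 3.58.1 (R 4.3.3) fitted all 4 groups together with its trend option, and two-sided p-values were adjusted by Benjamini-Hochberg within each contrast, with a threshold of 0.05. The script was tested on simulated data. SHHN was set against control within NIH-3T3 and within MLg, the MLg effect was subtracted from the NIH-3T3 effect, and the control groups were compared (NIH-3T3 minus MLg). The members and lists were chosen with earlier results of these data known. Of each list, the text names up to 4 genes with the smallest p in either SHHN contrast among those past the threshold, beside Psmb5, Psmb6, Psmb7, Irf1, Irf2 and Rfx5; another gene fixed by name in that rule is not reported here. The genes most alike were the 6 with the highest correlation and a mean of at least 1 FPKM, without predicted genes.

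In MLg, control and SHHN libraries sharing a number deviated together from their group means (r across genes 0.13, 0.16 and 0.24). Those of NIH-3T3 did not (0.00, −0.10 and 0.03). Between the control groups of the 2 lines, libraries sharing a number gave −0.07, 0.45 and 0.39. The numbers may thus pair the MLg samples, but these values do not settle it. The main p-values leave the numbers out, and a block for them was tried only as an alternative. Alternatives tried were a pseudocount of 0.1 or 1, filtering at 1 FPKM or not at all, quantile normalization or median-ratio scaling, fits of only the 6 libraries compared, a block for the replicate number, robust variances, sums of H2 genes, and omission of each library in turn.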

Additional observations from a re-analysis of the deposited data

Results flagged for a closer look

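The effects of SHHN on Tap1 and Psmb9 were marked because they differed between the lines in a test of the difference itself (limma). For Tap1 the effect in NIH-3T3 exceeded that in MLg by 0.85 on the log2 scale (adjusted p = 0.0143), with all 3 SHHN libraries above control in NIH-3T3 and all 3 below control in MLg. For Psmb9 the effects differed by 0.83 (adjusted p = 0.0389), with all 3 SHHN libraries above control in NIH-3T3 and overlapping groups in MLg. Among all genes 13.4% had a difference past the threshold, 7.48% with the higher effect in NIH-3T3. Samples far from the others of a group were not searched for, since each group holds 3 libraries.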

How the results depend on the processing

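Of the tested members, the count that rose in NIH-3T3 (1) was 0 with quantile normalization, 0 with the 6 libraries alone and 0 to 1 without single libraries. The count that fell there (3) was 1 with the 6 libraries alone and 1 to 4 without single libraries. In MLg the count that fell (5) was 3 to 6 without single libraries. The count with a higher effect in NIH-3T3 than in MLg (2) was 1 with no filter, 1 with quantile normalization and 1 to 3 without single libraries. Fits with fewer libraries have fewer samples by construction, and the cause of the other changes was not tested. Over the 8 members, 4 comparisons and all alternatives, 657 of 712 values kept their direction and side of the threshold, 37 lost a call, 9 gained one and 9 changed sign. With the replicate block, the member call that changed was the difference of Psmb10 (adjusted p = 0.0340), and among the other genes named Fcgrt gained its NIH-3T3 call (0.0381) and Rpusd4 lost it (0.0512).

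No value that changed sign was past the threshold before or after. Without single libraries, the difference between lines ran from −0.11 to 0.24 for B2m and from −0.13 to 0.24 for H2-D1. The contrast of the control lines ran from −0.22 to 0.24 for H2-K1, −0.039 to 0.33 for H2-D1, −0.17 to 0.037 for Tap1 and −0.037 to 0.10 for Tap2. In NIH-3T3 the SHHN effect ran from −0.10 to 0.14 for Psme3, −0.18 to 0.037 for Psmb6, −0.13 to 0.0073 for Psmb7 and −0.065 to 0.10 for Rfx5, which was −0.085 with quantile normalization. In MLg it ran from −0.081 to 0.082 for Lap3, −0.052 to 0.037 for Psmb1, −0.10 to 0.13 for Psmb5 and −0.045 to 0.16 for Psmb6. Also in MLg, quantile normalization gave 0.025 for Psmb1 and median-ratio scaling −0.018 for Psmb5.

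Over all genes, the number lower in NIH-3T3 was 1826 and 1182 with the 6 libraries alone. The number lower in MLg was 1238 and 811 without MLg SHHN replicate 3. The number with a higher effect in NIH-3T3 was 926 and fell to between 605 and 614 without MLg SHHN replicate 3, NIH-3T3 SHHN replicate 2 or MLg control replicate 2. The number with a lower effect was 736, with 1214 without NIH-3T3 control replicate 2 and 451 without MLg SHHN replicate 3. Depth is unknown and limits Psmb8 and Nlrc5.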
